A study of Mus musculus with 16 samples.

Results

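Solute carriers are the largest family of membrane transporters. They move amino acids, sugars, lactate, nucleosides, vitamins, metals and inorganic ions across the plasma membrane and across the membranes of mitochondria and other organelles, most of them by coupling one solute to another or by following its gradient. Embryonic stem cells are known for heavy use of glycolysis and of amino acid uptake, so lactate exporters and amino acid exchangers are often read as part of their metabolic state. The genes described here are those of the mouse with a symbol of the form Slc, number, a, number, apart from Slc2a1 and Slc2a3, that reached 1 FPKM (fragments per kilobase of transcript, scaled to the fragments of the library) in at least 2 of 8 libraries. This rule took 181 of the 333 such symbols in the table, among 13166 genes of any kind that reached the same level. The genes were thus chosen by their FPKM level in these 8 libraries, and the presence of a gene here is not a result.

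RNA was measured in mouse embryonic stem cells of mixed 129/C57BL/6 strain at passages 9 to 11, in 4 groups of 2 libraries. KO cells are the Dgcr8-/- line named ES1 and WT cells are the wild-type line named v65; Dgcr8 is the partner of Drosha in releasing microRNA precursors. Each genotype was sampled at 48 h of differentiation in N2B27 with bFGF and KSR, a medium in which naive cells leave that state, and in 2iL, a medium with inhibitors of MEK and GSK3 plus LIF that holds naive pluripotency. With 1 line per genotype, genotype and line cannot be told apart, and the series design calls the libraries biological replicates without saying what was repeated.

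The libraries were close within groups, with Pearson's r of 0.987 to 0.991 between replicates over all tested genes on the log2 scale. Read totals were not given, so depth is unknown and values carry no counting interval; 11410 to 12024 genes reached 1 FPKM per library. Dgcr8, the targeted gene, was at 7.84 and 7.799 FPKM at 48 h and 9.11 and 9.33 FPKM in 2iL in KO cells, against 20.7 and 20.9 FPKM at 48 h and 18.3 and 19.2 FPKM in 2iL in WT cells. It was lower in KO cells (log2 difference −1.305, SE 0.05, limma adjusted p = 9.6e-07 at 48 h), and a signal remained there. Marker sums moved with the groups. The 7 pluripotency markers summed to 2960 to 3080 FPKM in KO and 1520 to 1610 FPKM in WT libraries at 48 h, and in 2iL to 4630 to 5060 FPKM in KO and 3510 FPKM in WT libraries. Utf1, of that list, instead rose by 48 h. It was at 276 and 258 FPKM at 48 h and 111 and 115 FPKM in 2iL in KO cells. In WT cells it was at 348.8 and 349.3 FPKM at 48 h and 167.6 and 164.9 FPKM in 2iL. The 5 formative markers summed to 303 to 310 FPKM in KO and 903 to 925 FPKM in WT libraries at 48 h, and in 2iL to 74.6 to 81.3 FPKM in KO and 130 to 141 FPKM in WT libraries. Most of that sum was Dnmt3b and Dnmt3a. Otx2, of the same list, was higher in KO cells at 48 h, at 41.2 and 38 FPKM against 26.9 and 26.7 FPKM in WT libraries. The 10 fibroblast and feeder markers summed to 541 to 550 FPKM in KO and 57.8 to 60.5 FPKM in WT libraries at 48 h, and in 2iL to 608 to 664 FPKM in KO and 350 to 362 FPKM in WT libraries, most of it vimentin. The other markers of that list did not move one way at 48 h. Dcn, decorin, was at 11.9 and 12.58 FPKM in KO and 2.218 and 1.736 FPKM in WT libraries at 48 h, whereas Tagln, transgelin, was at 0.902 and 0.928 FPKM in KO and 9.019 and 9.376 FPKM in WT libraries. Acta2 was at 0 in both KO libraries and at 2.578 and 1.925 FPKM in WT libraries at 48 h, and Thy1 at 5.836 and 5.346 FPKM in KO and 9.197 and 9.26 FPKM in WT libraries, while Col1a1, Col1a2, Col3a1, Postn and S100a4 stayed under 1 FPKM in all libraries. The 4 neuroectoderm markers summed to 37.0 to 39.6 FPKM in KO and 27.1 to 27.6 FPKM in WT libraries at 48 h, and in 2iL to 6.61 to 6.84 FPKM in KO and 10.8 to 11.3 FPKM in WT libraries. Within that list Nes was lower in KO cells at 48 h, at 13.4 and 14.2 FPKM against 21.95 and 21.6 FPKM in WT libraries. Neurod1 and Pax6 were higher in KO cells at 48 h, and Sox1 overlapped. The 5 trophectoderm markers summed to 27 to 27.3 FPKM in KO and 31.1 to 31.2 FPKM in WT libraries at 48 h, and in 2iL to 8.37 to 8.94 FPKM in KO and 8.77 to 9.4 FPKM in WT libraries, with Cdx2 and Elf5 below the 1 FPKM threshold. The 5 primitive streak and mesoderm markers summed to 1.18 to 1.21 FPKM in KO and 0.522 to 0.738 FPKM in WT libraries at 48 h, and in 2iL to 9.76 to 10.4 FPKM in KO and 2.22 to 2.7 FPKM in WT libraries, from Evx1 and Gsc for the most part. The 6 primitive endoderm markers stayed at or below a sum of 2.9 FPKM in all libraries. The part of these states in the carrier differences was not tested, and in bulk RNA fewer cells of a type and less RNA per cell cannot be told apart.

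A small number of mitochondrial carriers held much of the carrier RNA. The 181 genes summed to 2985 to 3411 FPKM per library, 0.608 to 0.648% of the table, and the 37 mitochondrial carriers made up 40.5 to 48.2% of that sum. Slc25a5, the ADP/ATP carrier of proliferating cells, was at 383 and 374 FPKM at 48 h and 391 and 423 FPKM in 2iL in KO cells, against 549 and 541 FPKM at 48 h and 573 and 563 FPKM in 2iL in WT cells. Slc25a3, the mitochondrial phosphate carrier, followed at 301 and 289.7 FPKM at 48 h and 339.6 and 349 FPKM in 2iL in KO cells, against 345 and 331 FPKM at 48 h and 340.2 and 336 FPKM in 2iL in WT cells. These 2 levels stood apart from all others in each library. By the mean over the 8 libraries the next gene was the glutathione carrier Slc25a39, at 105.8 FPKM, but the order after the top 2 depended on the group: Slc38a2 reached 158 and 157 FPKM in KO cells at 48 h, and Slc25a4 reached 167 and 166 FPKM and Slc16a3 156 and 165 FPKM in WT cells at 48 h. Slc25a4, Slc3a2, Slc7a3, Slc38a2, Slc35a4, Slc25a1, Slc20a1, Slc29a1 and Slc16a3 came after Slc25a39 by that mean, between 98.85 and 62.72 FPKM. Between 149 and 164 carriers reached 1 FPKM in any single library. Slc25a5 has processed pseudogenes, and how reads shared with them were counted was not given, so its level is uncertain.

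At the low end, the members nearest the 1 FPKM threshold were Slc25a45, Slc2a7 and Slc2a5, whose second-highest libraries held 1.003, 1.018 and 1.036 FPKM. Just outside were Slc38a9, Slc41a3 and Slc7a2 at 0.985, 0.900 and 0.835 FPKM. Of the 150 symbols outside, 31 were listed at 0 in all 8 libraries. Of the members, 17 reached the threshold in both libraries of 1 group and in no other group: Slc9a7 in KO cells at 48 h, 5 in KO cells in 2iL (Slc16a9, Slc23a4, Slc24a5, Slc4a10 and Slc7a9), and 11 in WT cells at 48 h (among them Slc16a10, Slc16a11, Slc22a7, Slc23a1, Slc25a24, Slc45a1, Slc46a3, Slc7a11, Slc7a4 and Slc8a2). A gene that entered through 1 high group had to differ, so counts are also given without these 17 where they matter. Members that passed in only 1 medium or only 1 genotype remain in those counts. Examples are Slc15a1 in 2iL, Slc5a5 at 48 h and Slc15a2 in WT cells, and the filter bears on their differences too.

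All differences are on the log2(FPKM + 1) scale, which understates changes of low genes, and a gene was called at a limma adjusted p below 0.05 over the 13166 genes. In KO cells 49 carriers rose and 52 fell by 48 h, where 26.5% of all genes rose and 21.9% fell. In WT cells 67 rose and 53 fell by 48 h, against 30.9% and 25.6% of all genes. The change itself differed between genotypes for 104 carriers, 44 with a higher and 60 with a lower change in KO than in WT cells, where 21.1% and 21.7% of all genes did so. Without the 17 genes that entered through 1 group, 44 were higher and 46 were lower among 164. Of these 164, 43 rose and 47 fell in KO cells, and 55 rose and 53 fell in WT cells. The excess of rises in WT cells thus came mostly from genes that entered through 1 group. Calls of at least 2-fold on this scale made up 21.5% of the carriers and 12.5% of all genes for this difference of changes, 13.3% and 9.19% for the KO change, and 19.3% and 13.9% for the WT change. The medians over the carriers were −0.01 for the KO change, 0.09 for the WT change and −0.14 for their difference, against 0.03, 0.03 and −0.01 over all genes. Between genotypes, 64 carriers were higher and 72 lower in KO cells at 48 h, where 33.4% of all genes were higher and 38.5% lower. In 2iL 68 were higher and 51 lower in KO cells, where 30.6% and 32.8% of all genes were. Over the 164, 62 were higher and 61 lower in KO cells at 48 h, and 61 higher and 48 lower in 2iL. The shares over all genes given here are the background for every count by class or list below. Those counts were not tested against them.

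The 48 h changes of the 2 genotypes share no library. Across the 181 genes they were correlated at r = 0.494, near the 0.456 of all genes; genes are not independent replicates. By calls, 28 carriers rose in both genotypes, 25 fell in both and 18 moved in opposite directions. The first 2 counts are 15.5% and 13.8% of the carriers, near the 14.4% and 11.8% of all genes. Opposite directions made up 9.94% of the carriers and 6.65% of all genes, a difference that was not tested. The 11 that rose in KO and fell in WT cells include the carriers of phosphate (Slc20a1), creatine (Slc6a8), pyrimidine nucleosides (Slc28a1) and thiamine (Slc19a2). The 7 that fell in KO and rose in WT cells were Slc7a8, Slc12a9, Slc25a10, Slc26a11, Slc30a3, Slc43a1 and Slc43a3. The plot of KO against WT changes shows that spread, with Slc16a3 at the upper end and several genes on opposite sides of an axis.

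**Figure D1:**
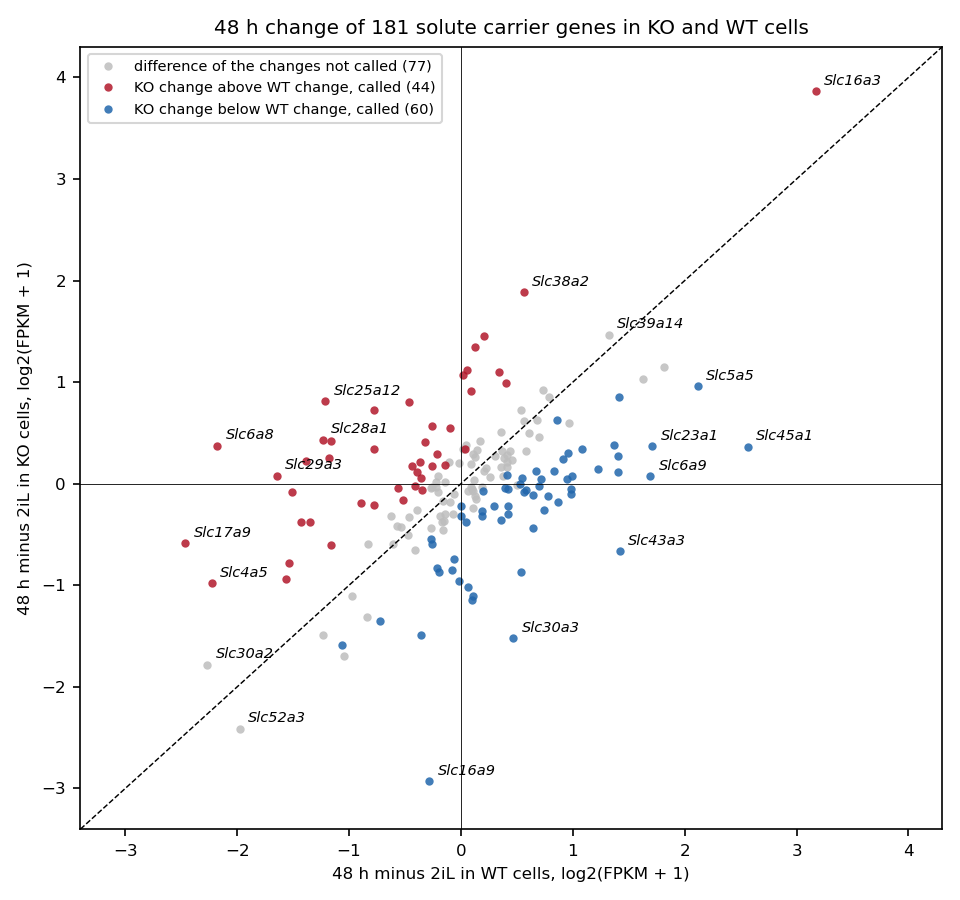
Change from 2iL to 48 h of the 181 carriers in KO cells (vertical axis) against WT cells (horizontal axis), both as differences of log2(FPKM + 1); red and blue points are genes whose change was called higher (44) or lower (60) in KO than in WT cells, grey points the 77 not called, and the dashed line marks equal changes. Slc16a3 lies furthest up in both genotypes, and Slc6a8, Slc25a12 and Slc28a1 rose in KO cells but fell in WT cells.

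The monocarboxylate carriers of the Slc16 family hold the gene with the largest rise. Slc16a3 encodes the lactate and proton exporter of glycolytic cells and lies on chromosome 11, 120948484 to 120959000 (mm10). It was at 69.7 and 69.5 FPKM at 48 h and 3.74 and 3.97 FPKM in 2iL in KO cells, against 156 and 165 FPKM at 48 h and 16.6 and 17.2 FPKM in 2iL in WT cells. Every 48 h library lay above every 2iL library, and within each medium both KO libraries lay below both WT libraries. The log2 change was 3.86 in KO cells (SE 0.05, limma adjusted p = 6.9e-08) and 3.17 in WT cells (SE 0.05, limma adjusted p = 4.2e-08), the largest rise among the carriers in either genotype. The level was lower in KO cells (log2 difference −1.19 at 48 h and −1.88 in 2iL), and the change was larger in KO cells (log2 difference 0.69, SE 0.07, limma adjusted p = 2.9e-04).

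Slc16a1, the widely expressed lactate and pyruvate carrier, moved the other way. It was at 13.2 and 14.2 FPKM at 48 h and 19.96 and 20.9 FPKM in 2iL in KO cells, against 28.6 and 29.6 FPKM at 48 h and 35.4 and 34.9 FPKM in 2iL in WT cells. It fell in both genotypes (log2 change −0.54 in KO cells and −0.26 in WT cells) and was lower in KO cells in both media. Its difference of changes was small (−0.28) and was not called in 4 of 15 alternatives, with a limma adjusted p of 0.0775 without WT 48 h replicate 2. The promoters of both genes are shown because the genes share a substrate, lactate, and moved in opposite directions. Each window runs from 250 bases before to 50 after a RefSeq start (GRCm38.p6). The windows are at chr11:120948817-120949116, plus strand, and chr3:104638414-104638713, plus strand. The Slc16a3 window lies within the gene span given above, so its start is not the outermost one. Both are written 5′ to 3′ on the gene's strand. Capitals mark the letters ACGTG or GCGTG, the core of the hypoxia response element, and their reverse complements.
Slc16a3: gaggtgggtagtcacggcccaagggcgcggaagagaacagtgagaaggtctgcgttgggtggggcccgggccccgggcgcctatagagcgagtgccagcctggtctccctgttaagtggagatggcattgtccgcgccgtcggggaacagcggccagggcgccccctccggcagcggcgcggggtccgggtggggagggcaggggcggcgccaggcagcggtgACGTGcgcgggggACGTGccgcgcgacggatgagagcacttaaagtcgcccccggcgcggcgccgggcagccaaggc
Slc16a1: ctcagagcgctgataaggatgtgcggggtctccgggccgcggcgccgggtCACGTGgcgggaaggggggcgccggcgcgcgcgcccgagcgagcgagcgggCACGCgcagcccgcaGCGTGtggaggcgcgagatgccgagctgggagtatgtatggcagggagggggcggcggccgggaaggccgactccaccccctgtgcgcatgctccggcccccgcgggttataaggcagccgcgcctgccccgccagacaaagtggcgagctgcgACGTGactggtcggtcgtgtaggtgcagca
The Slc16a3 window holds 2 such cores and the Slc16a1 window 5, of which 2 overlap in the E-box CACGTG, a motif that contains the core on both strands. The letters occur in 43.8% of all 32851 promoter windows of the table and in 61.3% of 181 windows of the 133 carriers with an entry, and a match describes the letters only.

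The lactate carriers reach the membrane with a partner, basigin (Bsg) or embigin (Emb). Bsg was at 189 and 188 FPKM at 48 h and 194 and 207 FPKM in 2iL in KO cells, against 175 and 176 FPKM at 48 h and 268 and 262 FPKM in 2iL in WT cells. Emb was at 33.1 and 30.6 FPKM at 48 h and 49.8 and 51.8 FPKM in 2iL in KO cells, against 100.4 and 101 FPKM at 48 h and 39.5 and 36.9 FPKM in 2iL in WT cells. It fell in KO cells (−0.66) and rose in WT cells (1.38), with a difference of changes of −2.03 (SE 0.08, limma adjusted p = 4.9e-06). Emb was highest in WT cells at 48 h, without overlap with the other groups. Of 10 hypoxia response genes measured out of 12 listed, 4 rose and 4 fell in KO cells by 48 h, where 26.5% and 21.9% of all genes did. In WT cells 6 of the 10 rose and 2 fell, where 30.9% and 25.6% of all genes did. Between genotypes, 2 were higher and 5 lower in KO cells at 48 h (5 higher with median-ratio scaling and 4 with quantile scaling), and 5 higher and 2 lower in 2iL. Vegfa, a growth factor gene of that list, was at 2.55 and 2.17 FPKM at 48 h and 8.21 and 11.3 FPKM in 2iL in KO cells, against 34.3 and 39.9 FPKM at 48 h and 10.9 and 11.7 FPKM in 2iL in WT cells. Ldha, the lactate dehydrogenase gene of glycolytic cells, was at 185 and 176 FPKM at 48 h and 132 and 140.2 FPKM in 2iL in KO cells, against 745 and 743 FPKM at 48 h and 528 and 529 FPKM in 2iL in WT cells. Ldha was lower in KO cells in both media (log2 difference −2.04 at 48 h and −1.95 in 2iL), as Slc16a3 was. Ndrg1, of the same list, went the other way, at 30.4 and 32.1 FPKM at 48 h and 19.6 and 20.7 FPKM in 2iL in KO cells, against 1.23 and 1.14 FPKM at 48 h and 12.2 and 10.4 FPKM in 2iL in WT cells. It was higher in KO cells in both media (log2 difference 3.88 at 48 h and 0.79 in 2iL), as was P4ha1, a collagen prolyl hydroxylase subunit (0.63 and 1.19). How far these genes and Slc16a3 are linked was not tested.

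The remaining Slc16 genes were low and mostly higher in WT cells at 48 h. Slc16a9 was the exception: it was at 0.958 and 0.934 FPKM at 48 h and 12.5 and 15.3 FPKM in 2iL in KO cells, against 0.154 and 0.126 FPKM at 48 h and 0.292 and 0.490 FPKM in 2iL in WT cells. KO cells in 2iL stood far above the 3 other groups. Its KO change of −2.93 and its KO against WT difference of 3.42 in 2iL were the largest fall and the largest excess among the carriers, given as a description since the gene entered the set through that group. Slc16a10, a carrier of aromatic amino acids, was at 0.215 and 0.241 FPKM at 48 h and 0.0806 and 0.196 FPKM in 2iL in KO cells, against 1.91 and 2.14 FPKM at 48 h and 0.0933 and 0.197 FPKM in 2iL in WT cells. WT cells at 48 h alone passed 1 FPKM, and the gene entered the set through them. Slc16a13 was at 1.76 and 0.826 FPKM at 48 h and 1.17 and 1.47 FPKM in 2iL in KO cells, against 8.44 and 7.25 FPKM at 48 h and 2.79 and 4.27 FPKM in 2iL in WT cells. It was lower in KO cells at 48 h (log2 difference −1.98, SE 0.23, limma adjusted p = 1.6e-04). Counted over the family, 2 of 8 rose and 2 fell in KO cells (1 rose without any single KO library), and 6 rose and 1 fell in WT cells. The change was lower in KO cells for 7 of 8, and for 4 without WT 48 h replicate 2. Of the 8, 4 entered through 1 high group, and over the other 4 the difference of changes was called lower for 3 and higher for Slc16a3. Those other 4 held 1 rise and 1 fall in KO cells, and 3 rises and 1 fall in WT cells. Among all genes 21.7% had a lower change in KO cells, and 30.9% rose in WT cells.

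By the measure of likeness used here, Pearson's r of log2(FPKM + 1) over the 8 libraries, the carriers most like Slc16a3 were Slc33a1 (0.940), Slc25a27 (0.928), Slc4a3 (0.926), Slc25a17 (0.924) and Slc5a5 (0.911). The 8 libraries form 4 groups, so few distinct levels stand behind each r. Slc5a5, the sodium iodide symporter, was at 1.42 and 1.43 FPKM at 48 h and 0.240 and 0.255 FPKM in 2iL in KO cells, against 6.06 and 5.8 FPKM at 48 h and 0.492 and 0.706 FPKM in 2iL in WT cells. Slc4a3, a chloride and bicarbonate exchanger, was at 2.04 and 1.62 FPKM at 48 h and 0.499 and 0.623 FPKM in 2iL in KO cells, against 5.23 and 5.12 FPKM at 48 h and 1.54 and 1.11 FPKM in 2iL in WT cells. In both, as in Slc16a3, WT cells at 48 h were highest and KO cells in 2iL lowest. Slc5a5 passed 1 FPKM at 48 h alone, so its rise in part restates how it entered the set.

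**Figure D2:**
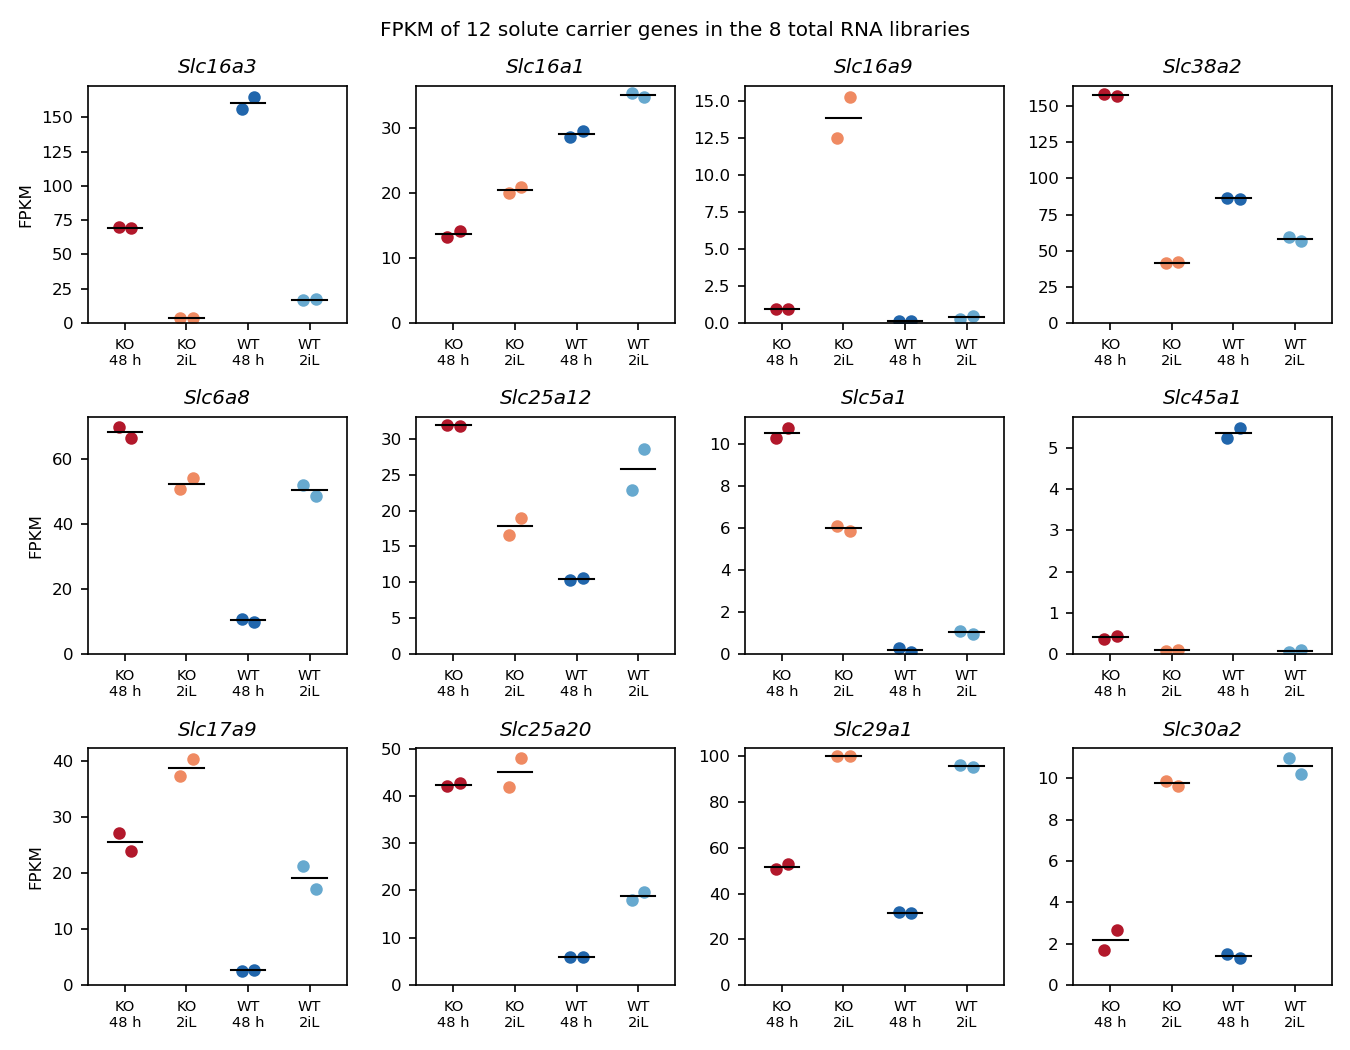
FPKM of 12 carriers in each library, with 2 points per group (KO 48 h, KO 2iL, WT 48 h, WT 2iL) and a line at the mean; each vertical axis is linear, starts at 0 and has its own scale. Slc16a3, Slc38a2 and Slc29a1 change with the medium in both genotypes, Slc16a9 is high in KO cells in 2iL, and Slc45a1 is high in WT cells at 48 h.

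Amino acid carriers split between genotypes. Of 29, 8 rose and 12 fell by 48 h in KO cells, where 26.5% of all genes rose and 21.9% fell. In WT cells 16 of the 29 rose and 7 fell, where 30.9% and 25.6% of all genes did. The change of these carriers was lower in KO than in WT cells for 14 and higher for 5, where 21.7% and 21.1% of all genes were. The median difference was −0.59 against −0.01 over all genes. Without the 3 that entered through 1 group the counts were 11 and 5 of 26. At 48 h 18 of the 29 were lower in KO cells and 7 higher, where 38.5% and 33.4% of all genes were. Over the 26, 14 rose and 7 fell in WT cells, and 16 were lower and 7 higher in KO cells at 48 h. The class follows the family number, so it includes carriers of other solutes, such as Slc43a3 (purine nucleobases) and Slc6a8 (creatine). In the plot of 28 of the 29 by their changes, the WT point lies right of the KO point for most.

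**Figure D3:**
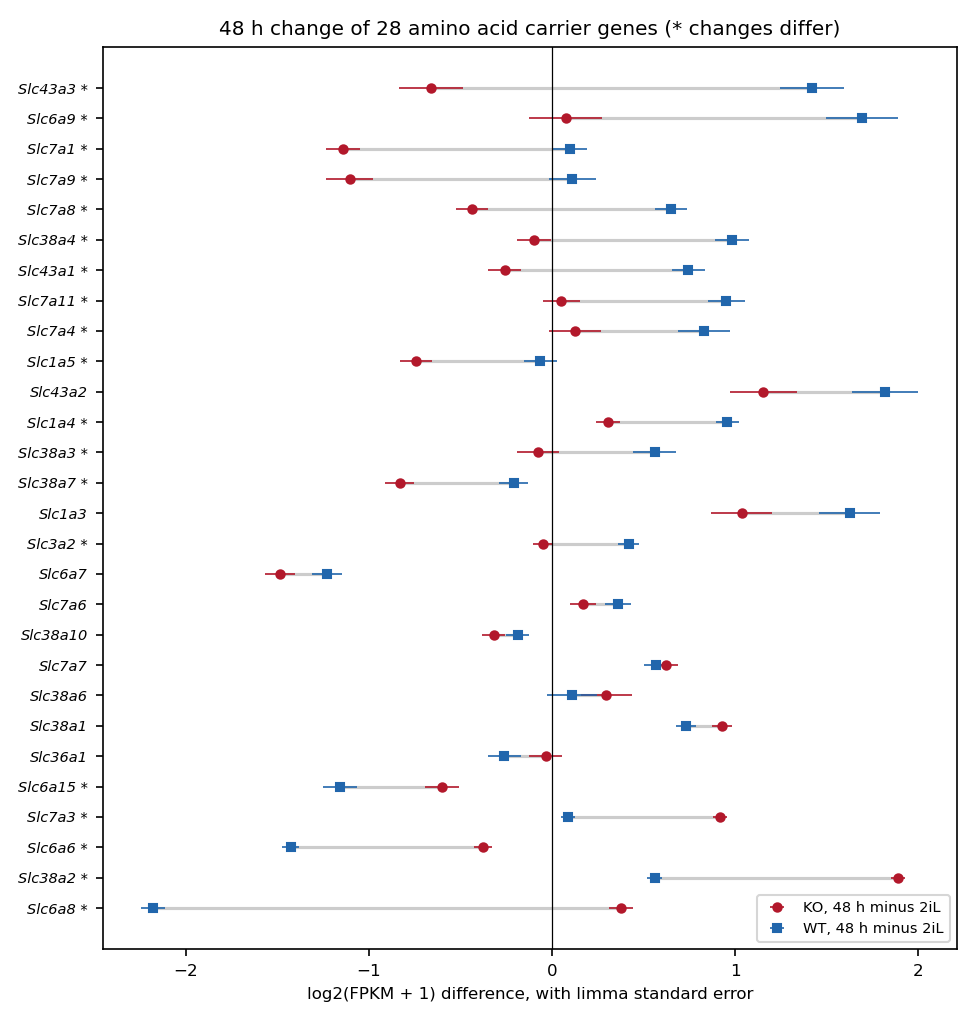
Change from 2iL to 48 h of 28 of the 29 amino acid carriers in KO (red circles) and WT cells (blue squares), as differences of log2(FPKM + 1) with limma standard errors, ordered by the difference between genotypes; a star marks genes whose changes were called different. Slc43a3, Slc6a9 and Slc7a1 have the lowest KO change relative to WT, and Slc6a8 and Slc38a2 the highest. Slc43a3 and Slc6a8 are in the class by family number and carry purine nucleobases and creatine.

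The heteromeric exchangers pair a light chain with the heavy chain Slc3a2 (or Slc3a1) and trade amino acids across the plasma membrane. Slc3a2 was at 59.9 and 59.8 FPKM at 48 h and 59.2 and 65.03 FPKM in 2iL in KO cells, against 149 and 160.2 FPKM at 48 h and 116 and 115 FPKM in 2iL in WT cells. Both media showed a lower level in KO cells (−1.35 at 48 h and −0.89 in 2iL). The rise by 48 h of 0.42 in WT cells had no counterpart past the threshold in KO cells (−0.05; difference of changes −0.47, limma adjusted p = 0.0029). Slc7a11, the cystine and glutamate exchanger that feeds glutathione synthesis, was at 0.189 and 0.118 FPKM at 48 h and 0.146 and 0.0834 FPKM in 2iL in KO cells, against 1.48 and 1.73 FPKM at 48 h and 0.311 and 0.378 FPKM in 2iL in WT cells. It passed 1 FPKM, and so entered the set, in WT cells at 48 h alone. Slc7a7, a light chain for cationic and neutral amino acids, rose in both genotypes (log2 change 0.62 in KO cells and 0.57 in WT cells), from a lower level in KO cells (−0.82 in 2iL). Slc7a8, a light chain for neutral amino acids, fell in KO cells (−0.44) and rose in WT cells (0.65), and was under 2 FPKM in all libraries. Slc7a9, a light chain that pairs with Slc3a1, was at 0.765 and 0.875 FPKM at 48 h and 2.49 and 3.4 FPKM in 2iL in KO cells, against 0.583 and 0.488 FPKM at 48 h and 0.386 and 0.460 FPKM in 2iL in WT cells. KO cells in 2iL alone passed 1 FPKM. Over the 6 measured of 9 listed, 1 rose and 2 fell in KO cells, and 5 rose and none fell in WT cells. Slc7a11 and Slc7a9 are among the 6. The WT rise of Slc7a11 and the KO fall of Slc7a9 follow from how they entered the set, so the contrast is in part set by the filter. The other WT rises were those of Slc3a2, Slc7a6, Slc7a7 and Slc7a8, and the other KO fall was that of Slc7a8.

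The cationic amino acid carriers, which bring in arginine and lysine, diverged from each other. Slc7a3 was at 111 and 111 FPKM at 48 h and 57.1 and 59.4 FPKM in 2iL in KO cells, against 105 and 104 FPKM at 48 h and 97.4 and 99.3 FPKM in 2iL in WT cells. It rose in KO cells (log2 difference 0.92, SE 0.04, limma adjusted p = 3.0e-06) with a WT difference of 0.09 that was not called. Slc7a1 was at 6.58 and 8.08 FPKM at 48 h and 16.5 and 18.2 FPKM in 2iL in KO cells, against 22.9 and 24.1 FPKM at 48 h and 21.5 and 22.3 FPKM in 2iL in WT cells. It fell in KO cells (log2 difference −1.14, SE 0.09, limma adjusted p = 6.8e-05) while its WT difference was 0.10. KO cells at 48 h were thus lowest for Slc7a1, with no overlap with the other groups, while for Slc7a3 the low group was KO cells in 2iL.

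Carriers of small neutral amino acids and glutamine were also unequal. Slc38a2, which is known to respond to amino acid supply, was at 158 and 157 FPKM at 48 h and 41.4 and 42.1 FPKM in 2iL in KO cells, against 86.7 and 85.8 FPKM at 48 h and 59.7 and 56.6 FPKM in 2iL in WT cells. It rose in both genotypes, more in KO cells (1.89 in KO cells and 0.56 in WT cells; difference 1.33, SE 0.06, limma adjusted p = 7.8e-06). Slc38a1, its close relative, was at 9.29 and 10.01 FPKM at 48 h and 4.62 and 4.58 FPKM in 2iL in KO cells, against 33.9 and 33.7 FPKM at 48 h and 20 and 19.9 FPKM in 2iL in WT cells. It rose in both genotypes and was lower in KO cells in both media (log2 difference −1.71 at 48 h and −1.904 in 2iL). Slc1a5, a glutamine and neutral amino acid exchanger, was at 32.9 and 28.7 FPKM at 48 h and 54.4 and 49.95 FPKM in 2iL in KO cells, against 78.1 and 85.8 FPKM at 48 h and 80.6 and 90.95 FPKM in 2iL in WT cells. It fell in KO cells (−0.74), against −0.06 in WT cells, which was not called (difference of changes −0.68, limma adjusted p = 0.0048). Slc1a4, which carries alanine, serine and cysteine, was at 11.8 and 11.8 FPKM at 48 h and 8.86 and 9.97 FPKM in 2iL in KO cells, against 18.7 and 18.99 FPKM at 48 h and 9.195 and 9.26 FPKM in 2iL in WT cells. The rise in KO cells was smaller than in WT cells (log2 difference −0.65, SE 0.09, limma adjusted p = 0.0013). Slc38a4, an imprinted gene in mouse, was at 5.31 and 4.34 FPKM at 48 h and 5.28 and 5.16 FPKM in 2iL in KO cells, against 13.3 and 13.9 FPKM at 48 h and 6.55 and 6.18 FPKM in 2iL in WT cells. WT cells at 48 h stood above the other groups. Slc38a7, a lysosomal glutamine exporter, fell in KO cells (−0.83) and had a WT difference of −0.21 that was not called. Slc6a7, a proline carrier, fell in both genotypes (log2 change −1.49 in KO cells and −1.23 in WT cells).

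The amino acid response, driven by the transcription factor ATF4, is known to act on several of these exchangers, so its list of 12 genes was set beside them. In KO cells 2 of 12 rose and 5 fell by 48 h, where 26.5% and 21.9% of all genes did. In WT cells 10 of the 12 rose and 1 fell, where 30.9% and 25.6% of all genes did. At 48 h 11 were lower and none higher in KO cells (median −2.11), and in 2iL 9 were lower and none higher (median −0.68; 1 was higher under median-ratio or quantile scaling and without WT 2iL replicate 1). The change was lower in KO cells for 11 (median −1.0). Among all genes, 38.5% were lower and 33.4% higher in KO cells at 48 h, and 32.8% and 30.6% in 2iL. A lower change was called for 21.7% of all genes. The call of Sesn2 at 48 h and those of Ddit3 and Sesn2 for the difference of changes were lost in some alternatives. Chac1, a glutathione-degrading enzyme of that response, was at 3.65 and 2.82 FPKM at 48 h and 2.35 and 2.85 FPKM in 2iL in KO cells, against 55.4 and 57.2 FPKM at 48 h and 13.98 and 16.6 FPKM in 2iL in WT cells. Trib3, a pseudokinase induced by ATF4, was at 5.95 and 6.44 FPKM at 48 h and 6.99 and 7.85 FPKM in 2iL in KO cells, against 49.2 and 53.9 FPKM at 48 h and 24.3 and 27.7 FPKM in 2iL in WT cells. Asns, asparagine synthetase, was at 38.3 and 40.3 FPKM at 48 h and 168 and 178 FPKM in 2iL in KO cells, against 178 and 192 FPKM at 48 h and 265 and 279 FPKM in 2iL in WT cells. Phgdh and Psat1, enzymes of serine synthesis, were lower in KO cells at 48 h (log2 difference −2.599 and −2.800). Ddit4, the gene not called at 48 h, was at 99.3 and 103 FPKM at 48 h and 28.9 and 32 FPKM in 2iL in KO cells, against 89.02 and 107 FPKM at 48 h and 27.2 and 27.9 FPKM in 2iL in WT cells. The carriers Slc3a2, Slc7a1, Slc1a4 and Slc1a5 stood below WT at 48 h, as did this list, while Slc38a2 was higher in KO cells (log2 difference 0.86, SE 0.04, limma adjusted p = 1.9e-06). Whether the 2 sets of values are linked was not tested.

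The windows of Slc7a11 and Slc1a4 are shown because both genes are described above and their promoters hold the amino acid response element, sought as TGATGNAAN on both strands, with matches in capitals. They lie at chr3:50443564-50443863, minus strand, and chr11:20332664-20332963, minus strand (GRCm38.p6).
Slc7a11: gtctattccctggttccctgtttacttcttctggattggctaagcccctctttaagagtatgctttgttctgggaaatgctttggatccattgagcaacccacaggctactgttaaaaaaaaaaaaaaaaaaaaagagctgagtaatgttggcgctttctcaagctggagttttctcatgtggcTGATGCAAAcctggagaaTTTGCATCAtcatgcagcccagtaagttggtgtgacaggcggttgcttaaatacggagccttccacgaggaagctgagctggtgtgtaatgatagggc
Slc1a4: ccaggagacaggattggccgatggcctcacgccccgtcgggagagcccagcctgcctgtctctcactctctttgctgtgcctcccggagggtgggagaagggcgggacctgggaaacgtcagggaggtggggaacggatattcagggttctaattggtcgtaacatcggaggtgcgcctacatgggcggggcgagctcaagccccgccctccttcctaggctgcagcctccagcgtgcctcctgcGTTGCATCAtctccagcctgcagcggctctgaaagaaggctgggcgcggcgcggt
The Slc7a11 window holds 2 matches, on opposite strands, and the Slc1a4 window 1. The letters occur in 3.95% of all promoter windows and in 2.76% of the carriers' windows.

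Glycine, creatine and taurine carriers of the Slc6 family gave some of the widest differences. Slc6a8, the creatine carrier, lies on chromosome X, 73673133 to 73682502 (mm10) and was at 69.8 and 66.3 FPKM at 48 h and 50.5 and 53.95 FPKM in 2iL in KO cells, against 10.9 and 9.79 FPKM at 48 h and 51.8 and 48.6 FPKM in 2iL in WT cells. WT cells at 48 h were far below the 3 other groups. Its change was 0.38 in KO cells and −2.18 in WT cells, and the difference of changes, 2.55, SE 0.09, limma adjusted p = 3.8e-06, was the largest positive one among the carriers. Slc6a6, the taurine carrier, was likewise lowest in WT cells at 48 h, at 38.6 and 38.4 FPKM at 48 h and 50.7 and 49.9 FPKM in 2iL in KO cells, against 13.6 and 13.5 FPKM at 48 h and 39.5 and 36.7 FPKM in 2iL in WT cells. Both genotypes showed a fall, less in KO cells (difference of changes 1.05, SE 0.07, limma adjusted p = 4.1e-05). Slc6a9, a glycine carrier, was at 3.13 and 5.02 FPKM at 48 h and 4.21 and 3.31 FPKM in 2iL in KO cells, against 15.2 and 16.4 FPKM at 48 h and 3.61 and 4.83 FPKM in 2iL in WT cells. It was high in WT cells at 48 h alone (difference of changes −1.62, SE 0.28, limma adjusted p = 0.0032).

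Slc1a3, a glutamate carrier, was at 1.68 and 1.61 FPKM at 48 h and 0.151 and 0.445 FPKM in 2iL in KO cells, against 11.8 and 12.5 FPKM at 48 h and 2.64 and 3.96 FPKM in 2iL in WT cells. It was lower in KO cells in both media (log2 difference −2.31, SE 0.17, limma adjusted p = 1.4e-05 at 48 h) and rose by 48 h in both genotypes. Slc43a2, a carrier of large neutral amino acids, rose in both genotypes as well (log2 change 1.15 in KO cells and 1.82 in WT cells). Slc43a3, which carries purine nucleobases despite its family number, was at 1.55 and 2.55 FPKM at 48 h and 3.38 and 4.17 FPKM in 2iL in KO cells, against 5.19 and 4.51 FPKM at 48 h and 1.04 and 1.33 FPKM in 2iL in WT cells. Its change was lower in KO cells (difference of changes −2.08, SE 0.25, limma adjusted p = 6.0e-04). Its KO fall was not called in 3 alternatives, with a limma adjusted p of 0.0918 without KO 2iL replicate 2.

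Most nucleoside carriers changed unequally in the genotypes. Of 5, 3 fell and none rose in WT cells, 1 fell and 2 rose in KO cells, and the change was higher in KO cells for 4 (median 1.25). Among all genes, 25.6% fell and 30.9% rose in WT cells, 21.9% fell and 26.5% rose in KO cells, and 21.1% had a higher change. Slc29a1, the equilibrative carrier of the plasma membrane, was at 50.5 and 52.9 FPKM at 48 h and 100.2 and 100.2 FPKM in 2iL in KO cells, against 31.8 and 31.6 FPKM at 48 h and 96.1 and 95.3 FPKM in 2iL in WT cells. It fell in both genotypes, less in KO cells (−0.94 in KO cells and −1.56 in WT cells; difference 0.62, SE 0.06, limma adjusted p = 1.6e-04). Slc29a3, its lysosomal relative, was at 9.74 and 8.805 FPKM at 48 h and 9.01 and 8.41 FPKM in 2iL in KO cells, against 1.72 and 2.03 FPKM at 48 h and 8.296 and 7.69 FPKM in 2iL in WT cells. WT cells at 48 h stood apart below the other groups (difference of changes 1.73, SE 0.13, limma adjusted p = 6.7e-05). Slc28a1, which concentrates pyrimidine nucleosides with sodium, was at 41.5 and 38.1 FPKM at 48 h and 27.1 and 31.4 FPKM in 2iL in KO cells, against 7.46 and 7.99 FPKM at 48 h and 20.1 and 18.9 FPKM in 2iL in WT cells. It rose in KO and fell in WT cells (0.43 in KO cells and −1.23 in WT cells). Slc29a4, which carries monoamines as well as adenosine, was at 5.95 and 5.73 FPKM at 48 h and 1.33 and 1.65 FPKM in 2iL in KO cells, against 4.35 and 4.17 FPKM at 48 h and 3.63 and 3.498 FPKM in 2iL in WT cells. It rose in KO cells (log2 change 1.46) while the WT difference of 0.20 was not called.

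Slc17a9, the vesicular nucleotide carrier that loads ATP for release, was also lowest in WT cells at 48 h. It was at 27.1 and 23.9 FPKM at 48 h and 37.2 and 40.3 FPKM in 2iL in KO cells, against 2.55 and 2.73 FPKM at 48 h and 21.1 and 17.2 FPKM in 2iL in WT cells. Its changes were −0.59 in KO cells and −2.46 in WT cells, the largest WT fall among the carriers, with a difference of changes of 1.88, SE 0.15, limma adjusted p = 9.8e-05. Slc20a1, a plasma membrane phosphate carrier, was at 92.9 and 93.5 FPKM at 48 h and 53.2 and 52.5 FPKM in 2iL in KO cells, against 60.4 and 63.2 FPKM at 48 h and 90.1 and 81 FPKM in 2iL in WT cells. It rose in KO and fell in WT cells (0.81 in KO cells and −0.46 in WT cells). Its relative Slc20a2 was lower in KO cells in both media, at 19.8 and 18.8 FPKM at 48 h and 16 and 15.3 FPKM in 2iL in KO cells, against 46.3 and 47.5 FPKM at 48 h and 35.8 and 33.97 FPKM in 2iL in WT cells.

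Among sugar families, 7 of 16 rose and 1 fell in KO cells, and 2 rose and 3 fell in WT cells; the KO count of falls was 3 with median-ratio or quantile scaling and 2 without KO 2iL replicate 1 or KO 48 h replicate 1. Among all genes 26.5% rose and 21.9% fell in KO cells, and 30.9% rose and 25.6% fell in WT cells. The sugar families carry more than sugars: Slc5a6, a biotin and pantothenate carrier, fell in both genotypes (log2 change −1.35 in KO cells and −0.72 in WT cells). Slc5a1, the sodium-coupled glucose carrier of the intestine, was at 10.2 and 10.7 FPKM at 48 h and 6.07 and 5.86 FPKM in 2iL in KO cells, against 0.288 and 0.0826 FPKM at 48 h and 1.12 and 0.930 FPKM in 2iL in WT cells. All 4 KO libraries lay above all 4 WT libraries (log2 difference 3.28, SE 0.11, limma adjusted p = 4.3e-07 at 48 h, 1.78, SE 0.11, limma adjusted p = 1.1e-05 in 2iL), the largest KO excess at 48 h among the carriers, and the changes ran in opposite directions, 0.72 in KO cells and −0.78 in WT cells, although the KO rise was not called with a pseudocount of 0.1 (limma adjusted p = 0.0757). Slc45a1, a proton-coupled sugar carrier of brain, was at 0.364 and 0.441 FPKM at 48 h and 0.0811 and 0.0971 FPKM in 2iL in KO cells, against 5.24 and 5.47 FPKM at 48 h and 0.0506 and 0.103 FPKM in 2iL in WT cells. Both WT libraries at 48 h stood alone, and the gene entered the set through them, so no test is given. Slc5a11, an inositol carrier, rose in KO cells, at 21.2 and 19.7 FPKM at 48 h and 10.4 and 8.096 FPKM in 2iL in KO cells, against 7.93 and 7.51 FPKM at 48 h and 8.24 and 7.005 FPKM in 2iL in WT cells. The KO change was 1.07, SE 0.12, limma adjusted p = 3.3e-04, and the WT difference of 0.02 was not called. Slc2a4, the insulin-responsive glucose carrier of muscle and fat, rose in KO cells from a low level, at 2.13 and 2.02 FPKM at 48 h and 0.522 and 0.309 FPKM in 2iL in KO cells, against 1.02 and 0.893 FPKM at 48 h and 1.14 and 0.644 FPKM in 2iL in WT cells. Slc37a1 and Slc45a4 were higher in KO cells at 48 h (log2 difference 1.03 and 0.50).

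Vitamin and choline carriers moved gene by gene. Slc52a3, a riboflavin carrier, was at 1.33 and 1.92 FPKM at 48 h and 12.7 and 13.04 FPKM in 2iL in KO cells, against 0.227 and 0.185 FPKM at 48 h and 3.82 and 3.67 FPKM in 2iL in WT cells. Both genotypes showed a fall (log2 change −2.41 in KO cells and −1.98 in WT cells), and KO cells were above WT cells in both media (log2 difference 1.55, SE 0.11, limma adjusted p = 2.7e-05 in 2iL). Slc44a1, a choline carrier, was at 22.96 and 21.8 FPKM at 48 h and 29.3 and 29.4 FPKM in 2iL in KO cells, against 7.55 and 6.998 FPKM at 48 h and 21.1 and 19.1 FPKM in 2iL in WT cells. The fall was smaller in KO cells (difference of changes 0.97, SE 0.09, limma adjusted p = 2.4e-04). Slc19a2, a thiamine carrier, rose in KO and fell in WT cells (0.41 in KO cells and −0.32 in WT cells), whereas Slc19a1, the reduced folate carrier, was lower in KO cells in 2iL (−1.18) and at 48 h (−1.21). Slc23a1, an ascorbate carrier, was at 0.514 and 0.341 FPKM at 48 h and 0.175 and 0.0315 FPKM in 2iL in KO cells, against 2.79 and 2.78 FPKM at 48 h and 0.136 and 0.177 FPKM in 2iL in WT cells. It passed 1 FPKM, and so entered the set, in WT cells at 48 h alone. Slc23a4, a nucleobase carrier in rat, was instead highest in KO cells in 2iL, at 0.866 and 0.306 FPKM at 48 h and 3.21 and 3.56 FPKM in 2iL in KO cells, against 0.205 and 0.217 FPKM at 48 h and 0.751 and 0.377 FPKM in 2iL in WT cells.

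The 37 mitochondrial carriers, of which Slc25a17 sits in peroxisomes, had no single direction. In KO cells 9 rose and 10 fell, and in WT cells 13 rose and 11 fell; the rises were 5 in KO cells without KO 48 h replicate 2 and 8 in WT cells without WT 48 h replicate 2. Slc25a4, the ADP/ATP carrier of muscle and heart, was at 51.6 and 49.4 FPKM at 48 h and 48.8 and 55.3 FPKM in 2iL in KO cells, against 167 and 166 FPKM at 48 h and 124 and 129 FPKM in 2iL in WT cells. KO libraries held well under the WT level in both media (log2 difference −1.700, SE 0.06, limma adjusted p = 6.7e-07 at 48 h, −1.27, SE 0.06, limma adjusted p = 5.2e-06 in 2iL), and Slc25a5 was lower in KO cells too (−0.52 and −0.48). Slc25a20, the carnitine and acylcarnitine carrier of fatty acid oxidation, was at 42.1 and 42.7 FPKM at 48 h and 41.9 and 48.02 FPKM in 2iL in KO cells, against 5.92 and 5.95 FPKM at 48 h and 17.97 and 19.6 FPKM in 2iL in WT cells. It was higher in KO cells (log2 difference 2.65, SE 0.07, limma adjusted p = 2.3e-07 at 48 h). WT cells at 48 h were low for it and the KO groups high, without overlap.

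The aspartate and glutamate carriers of the malate-aspartate shuttle did not move as a pair. Slc25a12 was at 31.98 and 31.8 FPKM at 48 h and 16.6 and 19 FPKM in 2iL in KO cells, against 10.4 and 10.6 FPKM at 48 h and 22.9 and 28.6 FPKM in 2iL in WT cells. It rose in KO and fell in WT cells (0.81 in KO cells and −1.21 in WT cells; difference of changes 2.02, SE 0.15, limma adjusted p = 6.9e-05). Slc25a13 fell in both genotypes (log2 change −0.33 in KO cells and −0.46 in WT cells). Slc25a36 and Slc25a33, both pyrimidine nucleotide carriers, also diverged. Slc25a36 was at 38.6 and 39.01 FPKM at 48 h and 68.6 and 65.8 FPKM in 2iL in KO cells, against 15.5 and 16.8 FPKM at 48 h and 48.8 and 48.4 FPKM in 2iL in WT cells. It fell in both genotypes. Slc25a33 was at 5.69 and 4.93 FPKM at 48 h and 5.31 and 6.44 FPKM in 2iL in KO cells, against 13.8 and 13.99 FPKM at 48 h and 7.29 and 8.12 FPKM in 2iL in WT cells. It was high in WT cells at 48 h alone. Slc25a40 and Slc25a39, both linked to mitochondrial glutathione, differed too. Slc25a40 rose in KO cells (log2 change 1.096), at 27.2 and 25.7 FPKM at 48 h and 11.7 and 11.98 FPKM in 2iL in KO cells, against 6.64 and 7.85 FPKM at 48 h and 5.66 and 5.36 FPKM in 2iL in WT cells. Slc25a39 fell in KO cells (log2 change −0.60). Slc25a37, the iron carrier mitoferrin 1, was at 2.96 and 3.42 FPKM at 48 h and 3.55 and 3.49 FPKM in 2iL in KO cells, against 8.73 and 9.32 FPKM at 48 h and 5.23 and 5.59 FPKM in 2iL in WT cells. Its sister Slc25a28 was within 12.3 to 16.2 FPKM in all libraries. Slc25a15, an ornithine carrier, was lower in KO cells in both media (−0.98 in 2iL), and Slc25a1, the citrate carrier, was higher in KO cells in 2iL (0.48).

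Zinc carriers, the Slc39 importers and Slc30 exporters, had no shared direction: of 18, 3 rose and 6 fell in KO cells, and 6 rose and 6 fell in WT cells. Slc39a14, an importer of zinc, iron and manganese, rose in both genotypes, at 62.9 and 67.4 FPKM at 48 h and 22.8 and 23.1 FPKM in 2iL in KO cells, against 57.3 and 58.05 FPKM at 48 h and 23.04 and 21.9 FPKM in 2iL in WT cells. Its log2 change was 1.47 in KO cells and 1.32 in WT cells. Its difference of changes, 0.15 with SE 0.07, was not called. Slc30a9, a mitochondrial zinc exporter, rose in both genotypes (log2 change 0.86 in KO cells and 0.78 in WT cells). Slc30a2, a vesicular exporter, fell in both, at 1.69 and 2.66 FPKM at 48 h and 9.896 and 9.66 FPKM in 2iL in KO cells, against 1.52 and 1.29 FPKM at 48 h and 10.99 and 10.2 FPKM in 2iL in WT cells. Its log2 change was −1.78 in KO cells and −2.27 in WT cells. Falls in both were also called for Slc39a11 (−1.699 in KO cells and −1.04 in WT cells) and Slc39a1 (−0.59 in KO cells and −0.60 in WT cells). Slc30a3, which loads synaptic vesicles with zinc, was at 0.486 and 0.431 FPKM at 48 h and 2.95 and 3.44 FPKM in 2iL in KO cells, against 2.29 and 2.56 FPKM at 48 h and 1.26 and 1.703 FPKM in 2iL in WT cells. It fell in KO cells (log2 difference −1.52, SE 0.12, limma adjusted p = 5.3e-05) with a difference of changes of −1.99, SE 0.17, limma adjusted p = 1.2e-04. Slc39a10, a plasma membrane importer, was at 9.13 and 9.56 FPKM at 48 h and 10.4 and 9.25 FPKM in 2iL in KO cells, against 25.7 and 26.3 FPKM at 48 h and 17.98 and 16.3 FPKM in 2iL in WT cells. Slc39a4, the importer of dietary zinc in the gut, was lower in KO cells in 2iL (log2 difference −1.45, SE 0.08, limma adjusted p = 8.1e-06).

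Metallothioneins, which bind zinc and report its supply, were measured beside them. Mt1 was at 628 and 666 FPKM at 48 h and 1030 and 1179 FPKM in 2iL in KO cells, against 1231 and 1232 FPKM at 48 h and 1874 and 1929 FPKM in 2iL in WT cells. Both genotypes showed a fall (log2 change −0.77 in KO cells and −0.63 in WT cells), and so did Mt2 (log2 change −0.53 in KO cells and −0.36 in WT cells). Slc30a1, the plasma membrane exporter that shares their metal-responsive control, fell in both as well (−0.51 in KO cells and −0.47 in WT cells). Among carriers of iron, copper and magnesium, Slc40a1, the iron exporter ferroportin, was near 0 in WT cells in 2iL, at 1.88 and 1.98 FPKM at 48 h and 1.05 and 1.46 FPKM in 2iL in KO cells, against 1.66 and 1.92 FPKM at 48 h and 0.102 and 0.0536 FPKM in 2iL in WT cells. It rose in WT cells (log2 difference 1.37, SE 0.12, limma adjusted p = 5.2e-05). Slc31a1, the copper importer, was higher in KO cells at 48 h (1.08) and in 2iL (0.47). Slc41a1, a magnesium carrier, fell in both genotypes (log2 change −0.59 in KO cells and −0.83 in WT cells). Slc11a1, a divalent metal carrier of phagocytes, was at 1.95 and 3.47 FPKM at 48 h and 5.37 and 11.8 FPKM in 2iL in KO cells, against 0.794 and 0.343 FPKM at 48 h and 1.86 and 1.71 FPKM in 2iL in WT cells. Its KO libraries in 2iL lay far apart, and the log2 excess over WT cells there was 1.698, SE 0.34, limma adjusted p = 0.0035. Of 8 genes of the oxidative stress response, 7 rose in KO cells and none fell, where 26.5% of all genes rose and 21.9% fell. In WT cells 7 of the 8 rose and 1 fell, where 30.9% and 25.6% of all genes did. Hmox1, which breaks down heme, was at 73.2 and 73.8 FPKM at 48 h and 15.02 and 15.5 FPKM in 2iL in KO cells, against 160 and 164 FPKM at 48 h and 80.2 and 75.1 FPKM in 2iL in WT cells. Nqo1, a quinone reductase and the one that fell in WT cells, was at 102 and 99.8 FPKM at 48 h and 29.9 and 28.4 FPKM in 2iL in KO cells, against 31.97 and 32.3 FPKM at 48 h and 41.9 and 41.9 FPKM in 2iL in WT cells.

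Ion carriers were more often higher than lower in KO cells in 2iL, 14 against 5 of 23, and 11 against 4 without the 4 that entered through 1 group, where 30.6% of all genes were higher and 32.8% lower. Slc12a7, a potassium and chloride cotransporter, fell in both genotypes and was higher in KO cells, at 19.4 and 19.98 FPKM at 48 h and 43 and 44.1 FPKM in 2iL in KO cells, against 8.48 and 8.29 FPKM at 48 h and 17.9 and 17 FPKM in 2iL in WT cells. Slc12a4, of the same group, was at 15.6 and 16.1 FPKM at 48 h and 5.24 and 5.99 FPKM in 2iL in KO cells, against 14.8 and 14.2 FPKM at 48 h and 13.9 and 12.5 FPKM in 2iL in WT cells. It was low in KO cells in 2iL alone (difference of changes 1.22, SE 0.11, limma adjusted p = 1.7e-04). Slc4a5, a sodium bicarbonate cotransporter, was high in WT cells in 2iL alone, at 7.81 and 7.63 FPKM at 48 h and 15.4 and 16.9 FPKM in 2iL in KO cells, against 8.86 and 10.1 FPKM at 48 h and 48.3 and 47.9 FPKM in 2iL in WT cells. It fell in both genotypes (−0.98 in KO cells and −2.23 in WT cells). Slc4a11 was low in WT cells at 48 h alone, at 9.64 and 10.96 FPKM at 48 h and 8.16 and 9.17 FPKM in 2iL in KO cells, against 1.83 and 2.69 FPKM at 48 h and 7.74 and 7.12 FPKM in 2iL in WT cells. The difference of changes was 1.61, SE 0.19, limma adjusted p = 6.1e-04. Slc26a11, an anion carrier, was at 0.311 and 0.308 FPKM at 48 h and 1.404 and 1.39 FPKM in 2iL in KO cells, against 1.55 and 1.17 FPKM at 48 h and 0.575 and 0.662 FPKM in 2iL in WT cells. It fell in KO and rose in WT cells (difference of changes −1.41, SE 0.15, limma adjusted p = 3.5e-04). Only KO cells in 2iL and WT cells at 48 h passed 1 FPKM, so this in part restates how the gene entered the set. Slc9a5, a sodium and proton exchanger, was lower in KO cells in both media (−1.55 at 48 h and −1.003 in 2iL).

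The sodium gradient that many carriers use is set by the sodium pump. Its subunit gene Atp1b1 was at 30.4 and 30.5 FPKM at 48 h and 61.6 and 63.9 FPKM in 2iL in KO cells, against 20.6 and 22.2 FPKM at 48 h and 44.9 and 44.1 FPKM in 2iL in WT cells. The subunit fell in both genotypes (log2 change −1.02 in KO cells and −1.02 in WT cells). Of 5 subunits measured out of 6 listed, 3 were higher and 2 lower in KO cells at 48 h. The ABC transporters, which pump solutes with ATP and are not of this family, were counted as well: 8 of 14 were higher and 1 lower in KO cells at 48 h (2 lower with quantile scaling or without KO 48 h replicate 1), where 33.4% of all genes were higher and 38.5% lower. In 2iL 9 were higher and 3 lower, where 30.6% and 32.8% of all genes were. Abcb1a, a multidrug exporter, was at 15.9 and 16.4 FPKM at 48 h and 20.9 and 20.3 FPKM in 2iL in KO cells, against 1.71 and 1.397 FPKM at 48 h and 10.8 and 8.51 FPKM in 2iL in WT cells. Abce1, which recycles ribosomes and transports nothing, was the gene lower at 48 h (−1.09).

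The smaller classes held a few wide differences. Slc15a1, the peptide carrier of the intestine, was at 0.0498 and 0.0986 FPKM at 48 h and 2.24 and 2.197 FPKM in 2iL in KO cells, against 0.0501 and 0.0138 FPKM at 48 h and 1.12 and 1.202 FPKM in 2iL in WT cells. Both genotypes showed a fall (−1.58 in KO cells and −1.07 in WT cells). Slc15a1 passed 1 FPKM in 2iL alone, so this fall follows in part from how it entered the set. Slc15a2, its kidney relative, was under 1 FPKM in all KO libraries, at 0.190 and 0.355 FPKM at 48 h and 0.0157 and 0.0141 FPKM in 2iL in KO cells, against 2.403 and 1.38 FPKM at 48 h and 0.946 and 1.26 FPKM in 2iL in WT cells. It entered the set through WT cells alone. Slc22a18, an imprinted gene in mouse, was at 2.42 and 0.957 FPKM at 48 h and 0.892 and 0.986 FPKM in 2iL in KO cells, against 1.29 and 0.944 FPKM at 48 h and 4.05 and 3.43 FPKM in 2iL in WT cells. WT cells in 2iL stood alone (difference of changes 1.58, SE 0.34, limma adjusted p = 0.0089). Fatty acid carriers Slc27a2 and Slc27a3 were higher in KO cells in both media. Slc27a2 was at 59.6 and 60.8 FPKM at 48 h and 37.4 and 40.04 FPKM in 2iL in KO cells, against 36.8 and 38.1 FPKM at 48 h and 20.3 and 20.03 FPKM in 2iL in WT cells. Slc27a3 differed by 1.12 at 48 h and 1.605 in 2iL. Slc27a1 was lower in KO cells in both (−0.88 and −0.72). Among nucleotide sugar carriers, Slc35a4 was within 61.5 to 93.7 FPKM in all libraries.

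Between genotypes, 30.6% of all genes were called higher and 32.8% lower in KO cells in 2iL. Of the 15 carriers shown for their wide differences at 48 h, 10 were also called in 2iL, near the share of all genes. In the plot of these genes, Slc6a8, Slc29a3 and Slc4a11 above and Slc45a1 and Slc6a9 below are the ones whose 2iL difference was not called; those of Slc7a1 and Slc16a13 were lost in some alternatives. Calls of at least 2-fold made up 29.8% of carriers and 19.7% of all genes at 48 h, and 16.6% and 12.0% in 2iL. These genotype comparisons share libraries with the 48 h changes, so they are not separate evidence for them.

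**Figure D4:**
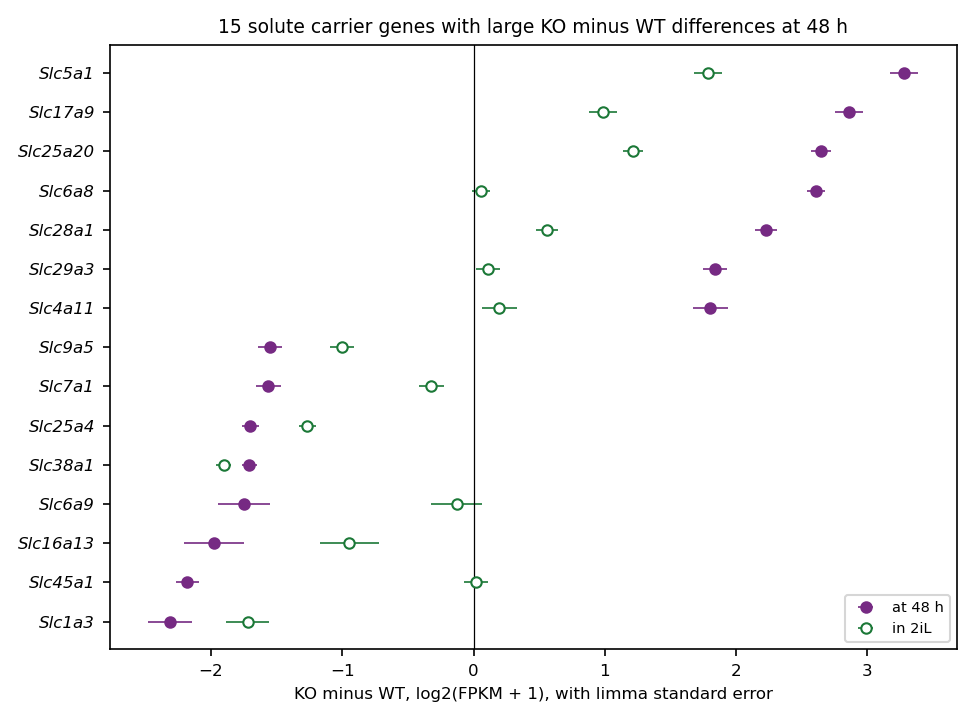
Difference between KO and WT cells at 48 h (filled) and in 2iL (open) for 15 of the carriers with the largest called differences at 48 h (7 higher and 8 lower in KO cells), in log2(FPKM + 1) with limma standard errors. Slc5a1 and Slc25a20 are higher and Slc1a3 and Slc38a1 lower in KO cells in both media. Slc45a1 entered the set through WT cells at 48 h alone, so its difference at 48 h is a description only.

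**Figure D5:**
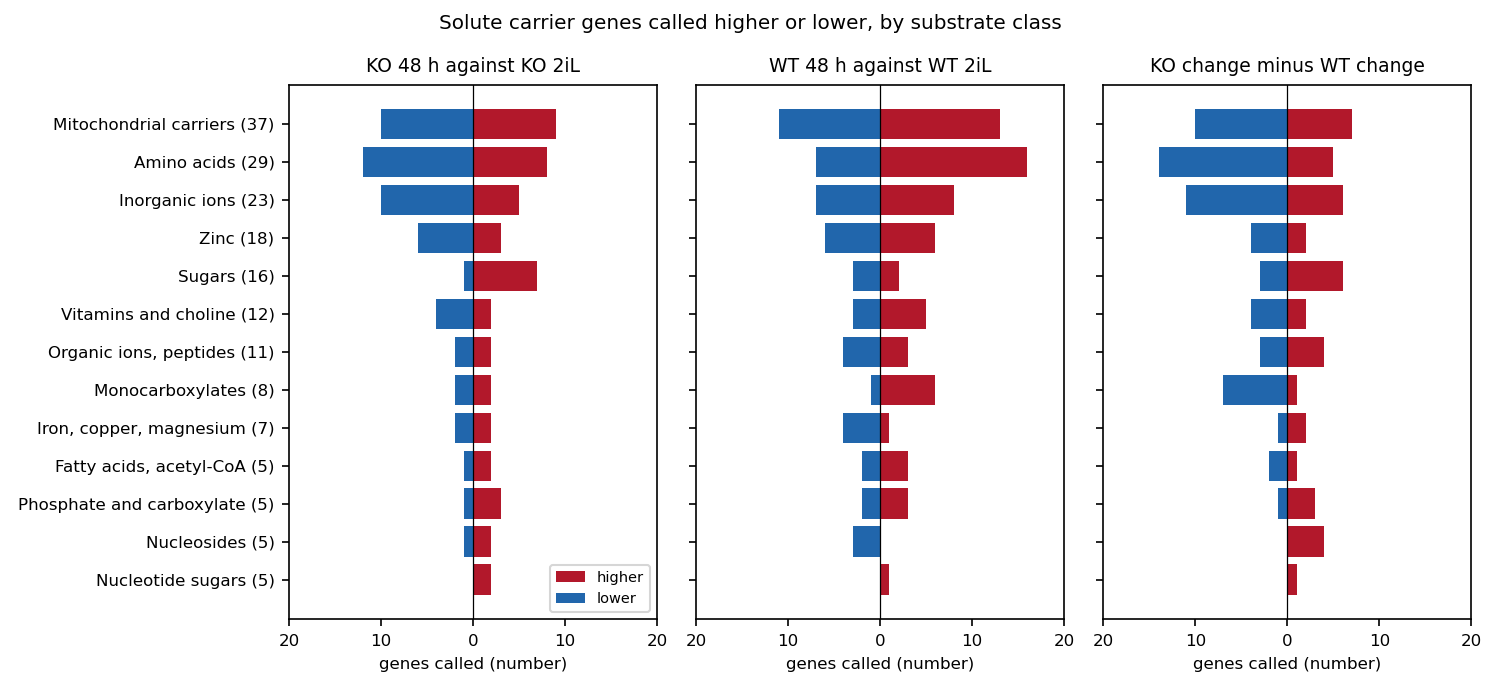
Number of carriers called higher (red, to the right of 0) or lower (blue, to the left) at 48 h against 2iL in KO cells, in WT cells, and for the KO change minus the WT change, by substrate class with its number of genes. Amino acid carriers have 8 rises and 12 falls in KO cells against 16 and 7 in WT cells.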

How the data were processed

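The table holds FPKM values that the authors deposited for 8 libraries of polyA RNA; per the labels, libraries were made with the dUTP method, and STAR 2.5.0, Cufflinks 2.2.1 and mm10 are named in the submitters' processing notes. Whether counting used strand is not given in the sources used here. Of 41258 rows, 56 repeated an identifier and were left out. Genes at 1 FPKM or more in at least 2 libraries (13166) were fitted on log2(FPKM + 1) with limma 3.58.1 (R 4.3.3), with 4 group means, an intensity trend and Benjamini-Hochberg adjustment over all of them. The script was tested on simulated data. The carriers and gene lists were chosen with earlier results of these data known. Named carriers are the 8 with the largest called differences in each direction per comparison whose groups do not overlap, the 12 highest and those at the threshold; other named genes are examples chosen after their values were seen. Classes follow the family number. Replicate numbers did not pair the libraries (correlations of deviations −0.153 to 0.18). Alternatives changed the pseudocount (0.1), filter, scaling, trend, samples and replicates. Promoter sequences are RefSeq's (GRCm38.p6); the miRNA table was not used here. P-values measure the spread between these libraries, which may be technical. Some genes are not reported here.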

Additional observations from a re-analysis of the deposited data

Results flagged for a closer look

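For 16 carriers the change from 2iL to 48 h differed between KO and WT cells by limma's test of the difference of changes, without overlap of the changes between genotypes over the library combinations. These are the 8 largest such differences in each direction, as KO change minus WT change on the log2 scale. The KO change was higher for Slc6a8 (2.55), Slc25a12 (2.02), Slc17a9 (1.88), Slc29a3 (1.73), Slc28a1 (1.67), Slc4a11 (1.61), Slc22a18 (1.58) and Slc5a1 (1.5). It was lower for Slc16a9 (−2.65), Slc45a1 (−2.2), Slc43a3 (−2.08), Slc30a3 (−1.99), Slc6a9 (−1.62), Slc26a11 (−1.41), Slc23a1 (−1.34) and Slc16a10 (−1.29). Of these, Slc16a9 entered through KO cells in 2iL alone, and Slc45a1, Slc23a1 and Slc16a10 through WT cells at 48 h alone, so their difference in part restates how they entered the set. The test carries no weight for these 4 genes, and their values are a description only. Slc26a11 passed 1 FPKM only in KO cells in 2iL and in WT cells at 48 h, so its difference is in part set the same way.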

How the results depend on the processing

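The 80 named differences kept their direction and their side of the threshold in every alternative that tested them. They were picked as the largest called differences in these same libraries, and some genes entered through 1 group. Their holding is therefore not separate support. Only 44 of them were tested under the filter on mean FPKM given next. With a mean FPKM of at least 5 required, 109 carriers remained and fewer were called because fewer were tested. The calls were 67 for the KO change, 76 for the WT change and 65 for the difference of changes. KO against WT gave 86 calls at 48 h and 73 in 2iL. Under this filter the larger side changed for the WT change, from 67 higher and 53 lower to 34 and 42. It also changed for the difference of changes, from 44 higher and 60 lower to 34 and 31. KO against WT at 48 h went from 64 higher and 72 lower to 44 and 42, and to 71 and 65 with median-ratio scaling. With quantile scaling the WT change gave 60 higher and 61 lower. The KO change and KO against WT in 2iL kept their larger side under this filter. Leaving out 1 library gave 81 to 91 calls for the KO change, 102 to 111 for the WT change, 120 to 125 at 48 h, 104 to 110 in 2iL and 78 to 94 for the difference of changes. The replicate block gave 98, 115, 133, 117 and 100 calls in that order, against 101, 120, 136, 119 and 104 without it, and the numbers did not pair the libraries. Calls held in every alternative for 69 of 101, 94 of 120, 111 of 136, 93 of 119 and 73 of 104 carriers. Slc25a39 in 2iL and Slc25a3 at 48 h changed sign with quantile scaling. Depth is unknown, so the counting error of low carriers could not be set apart from the spread between libraries.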
